A study of Mus musculus with 9 samples.

Results

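The 10 genes described here are ligands, receptors, signal transducers and a target of the Igf1, TGFβ, Pdgf and Egf families: *Igf1*, *Igf1r*, *Tgfb1*, *Tgfbr1*, *Tgfbr2*, *Tgfbi*, *Smad3*, *Smad7*, *Pdgfb* and *Hbegf*. They were chosen by symbol, from a table of 55401 genes, and not by their values. The table holds RNA-seq of RAW264.7, an established macrophage line that was derived from a tumor induced in a male mouse by the Abelson murine leukemia virus, with the genotype given as WT. One group received the solvent DMSO (DMSO group), one received DMSO with lipopolysaccharide (LPS group), and one received LPS with skatole, an indole compound (LPS + Ska group), with 3 samples each, numbered 5, 6 and 7. According to the labels the treatment lasted 24 h, whereas the methods of the study give a longer time. The comparison of LPS with DMSO asked what the inflammatory stimulus did to these genes. The comparison of LPS + Ska with LPS asked what skatole did in stimulated cells. All values come from 1 cell line, and no source states that the 3 samples of a group were separate cultures. The p-values therefore measure at most the spread between these samples. In the groups with LPS the columns are tied, as given below, and there the p-values do not measure that spread.

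Igf1 is a secreted growth factor that signals through the receptor tyrosine kinase Igf1r, and macrophages are one of its sources in tissue under repair. Tgfb1 is secreted in a latent form, and once released it binds Tgfbr2, which recruits and phosphorylates Tgfbr1. Tgfbr1 then phosphorylates Smad2 and Smad3, which enter the nucleus with Smad4, while Smad7 is an inhibitor induced by the same pathway. Pdgfb and Hbegf act on Pdgf receptors and Egf receptors of neighboring cells. LPS is a bacterial cell wall component that drives macrophages into the inflammatory M1 state.

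The values were deposited as TPM, a measure of abundance per transcript length scaled to 1 common total, which keeps no sequencing depth. The depth of the samples is therefore unknown. In both groups that received LPS, the column of replicate 5 lay midway between the other two columns, in 17950 of 17950 genes for LPS and in 17658 of 17658 genes for LPS + Ska, counted over genes with both other columns above 0 and within 1e-05 TPM. In the DMSO group the same held for 10 of 16674 genes. Each LPS group thus holds at most 2 independent values for a gene, and an SD over its 3 columns is not a replicate SD. The fit over all 9 columns counts the tied columns as separate values, so its errors and p-values are not those of independent samples. Results are given from the columns as deposited, with errors from the fit over all 9 columns, and were recomputed from the 2 values that can be recovered for each LPS group. All 8 macrophage markers (*Cd68*, *Csf1r*, *Adgre1*, *Itgam*, *Lyz2*, *Spi1*, *Fcgr1* and *Ptprc*) were detected in every group. Their summed level was 11141 to 12097 TPM with DMSO, 5889 to 6213 TPM with LPS, and 11513 to 11690 TPM with LPS + Ska. *Lyz2* made up most of the sum and set its course, with means of 9151, 4423 and 10061 TPM. The other markers did not follow it: *Cd68* (839, 657 and 608 TPM), *Csf1r* (835, 522 and 467 TPM) and *Spi1* (408, 233 and 230 TPM) had means below that of DMSO in both LPS groups, *Fcgr1* had 30.5, 34.1 and 22.4 TPM, and *Adgre1*, *Itgam* and *Ptprc* ranged from 19.7 to 24.2, 61.2 to 80.7 and 101 to 115 TPM. The 7 fibroblast markers summed to at most 0.462 TPM, the 5 lymphocyte markers to at most 0.164 TPM, and the 4 epithelial markers were at 0 in every column. The part of the macrophage marker levels in the results was not tested.

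The 10 genes spanned a wide range of levels. *Tgfb1* was the most abundant in every group, at 226 ± 14.3 TPM (SD, n = 3) in the DMSO group. In that group *Pdgfb* had 72.5 ± 5.61 TPM, *Tgfbr2* 53.2 ± 4.14 TPM, *Igf1* 30.6 ± 3.37 TPM, *Tgfbr1* 19.8 ± 2.39 TPM, *Smad3* 6.65 ± 1.24 TPM, *Smad7* 2.14 ± 0.560 TPM and *Hbegf* 0.293 ± 0.151 TPM (SD, n = 3). In this order none of the neighbors overlapped between their 3 DMSO columns. *Igf1r* and *Tgfbi* were listed at 0 in all 9 columns. With LPS, *Igf1* moved from the middle of this order to its lowest detected place, with 0.0902 TPM in the column of replicate 5. With LPS + Ska, *Igf1* and *Hbegf* stood together at the bottom, at 0.632 to 1.15 TPM and 0.763 to 0.867 TPM, and their columns overlapped. TPM was compared between genes here because it is a measure per transcript length.

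**Figure D1:**
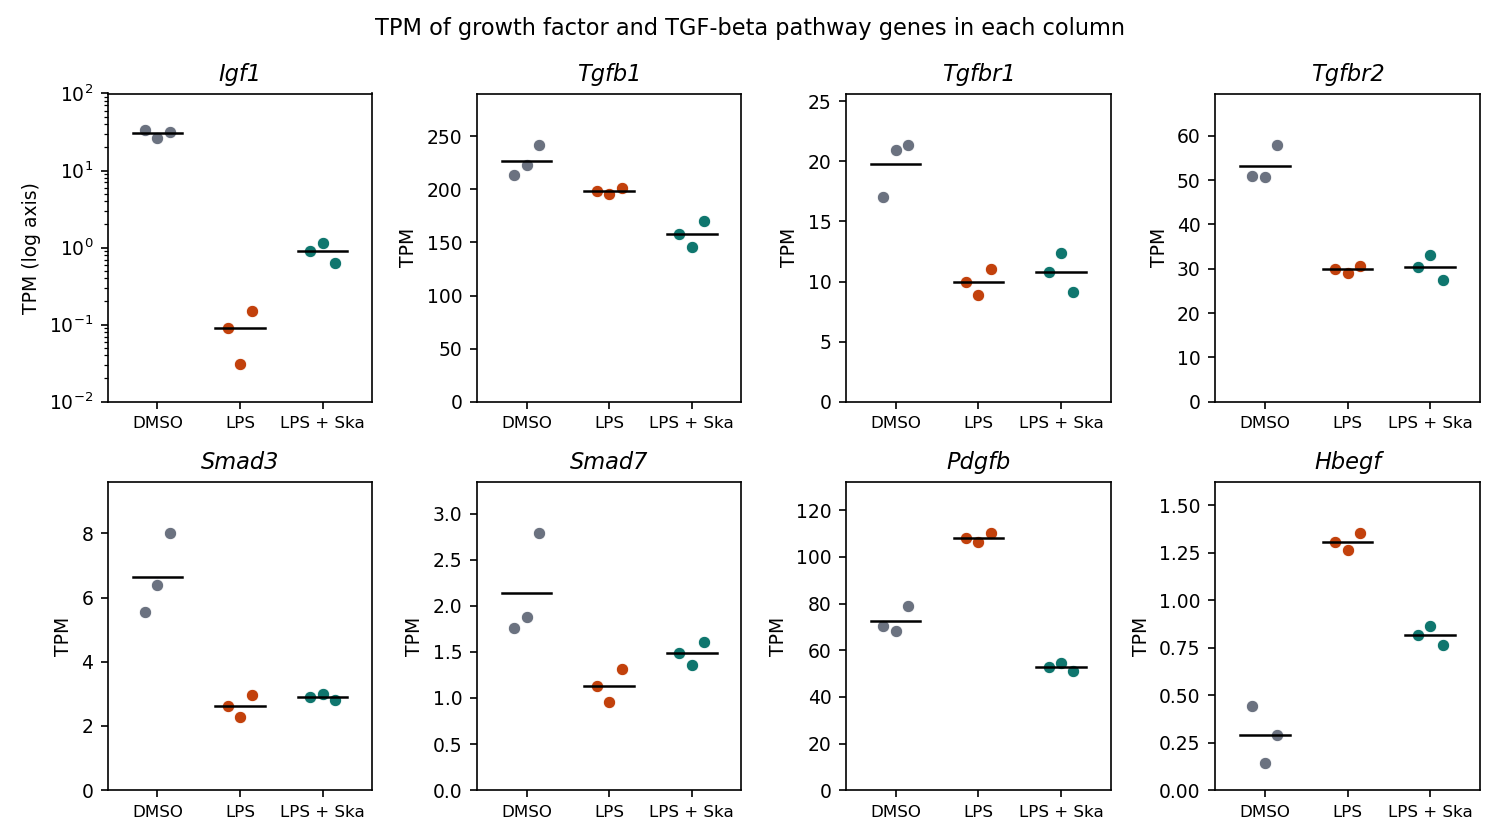
TPM of the members detected in at least 1 column, with 1 panel per gene, 1 point per deposited column of the DMSO, LPS and LPS + Ska groups and a line at each group's mean. The axis of *Igf1* is a log axis and the others are linear from 0. *Igf1* lies between 26.8 and 33.2 TPM with DMSO and at or below 1.15 TPM in every column that received LPS, whereas the columns of *Tgfb1* stay between 146 and 242 TPM in all groups.

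Of the 10 genes, 7 had a mean of at least 1 TPM over the 9 columns and were tested with the 12819 genes that passed this limit. *Igf1* reached it only through its DMSO columns, since its mean in the LPS group was 0.0902 TPM and that in the LPS + Ska group 0.890 TPM, so a difference of both groups from DMSO is built into its place among the tested genes. A gene was called changed at a limma adjusted p below 0.05 together with a fold change above 1.5 or below 0.67, on the log2(TPM + 1) scale. In LPS compared with DMSO, *Igf1*, *Tgfbr1*, *Tgfbr2* and *Smad3* fell and no tested member rose, where 20.0% of all tested genes were called lower and 12.7% higher. Between LPS + Ska and LPS, *Pdgfb* fell and *Igf1* passed the limits for a rise, at levels below 1 TPM in both group means, where 3.35% of all tested genes were called higher and 6.14% lower. *Igf1*, *Tgfbr1*, *Tgfbr2* and *Smad3* were also lower in LPS + Ska compared with DMSO, where 25.3% of all tested genes were called lower and 11.4% higher. No member was called higher than with DMSO in either comparison, and at an unadjusted limma p below 0.05 there was 1 with LPS (*Pdgfb*) and 0 with LPS + Ska, beside 28.1% and 24.2% of all tested genes that were higher at that p. The median log2 difference of the 7 tested members was -0.81, 0.10 and -0.79 in these comparisons, against -0.07, -0.10 and -0.18 over all tested genes. Median-ratio scaling, which sets the typical gene of each column to a common level, moved the median over all genes to 0.0071, -0.0046 and -0.013 and left the calls named here in place, while *Pdgfb* was then also called higher in LPS compared with DMSO. The calls named here were also the calls made from the recovered values. The 3 comparisons share columns, so they are not separate observations. In bulk RNA, fewer cells that express a gene and less of its RNA per cell cannot be told apart.

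**Figure D2:**
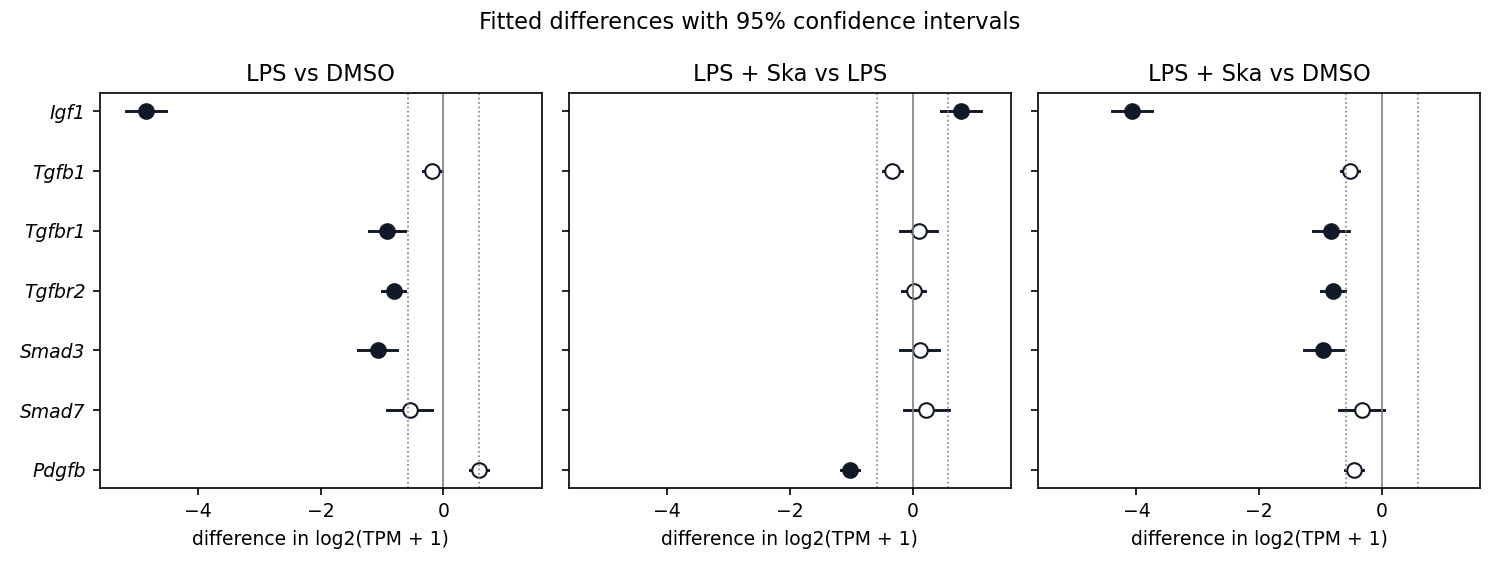
Difference in log2(TPM + 1) of the 7 tested members in the 3 comparisons, with 95% confidence intervals from limma. Filled points were called changed, open points were not, and dotted lines mark the fold change limits of 1.5 and 0.67. *Igf1* lies at -4.85 in LPS compared with DMSO, and *Pdgfb* is at -1.02 in LPS + Ska compared with LPS.

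*Igf1* RNA was near 0 TPM with LPS, and with LPS + Ska it lay above that and far below DMSO. *Igf1* (ENSMUSG00000020053, chr10:87858265-87937042 on the plus strand, GRCm38) had 33.2, 26.8 and 31.9 TPM in the DMSO columns of replicates 5, 6 and 7. It had 0.0902, 0.0312 and 0.149 TPM in the LPS columns. With LPS + Ska it had 0.890, 1.15 and 0.632 TPM. The 3 groups did not overlap, and every LPS + Ska column lay above every LPS column and far below every DMSO column. The mean with LPS was 0.294% of that with DMSO, and the mean with LPS + Ska was 2.91%. The log2 difference was -4.85 ± 0.14 (SE) in LPS compared with DMSO (limma adjusted p = 2.6e-08), with a 95% confidence interval of -5.18 to -4.53. The difference of LPS + Ska from LPS was 0.79 ± 0.14 (SE), with an interval of 0.46 to 1.11 (limma adjusted p = 0.0043, and 0.016 from the recovered values). Both of these group means lay under the limit of 1 TPM that kept *Hbegf* out of the test, so this difference is one between levels near 0. When genes of all levels were tested its adjusted p was 0.0086. *Igf1* was still lower in LPS + Ska compared with DMSO, by a log2 difference of -4.07 (limma adjusted p = 9.7e-08). The difference of LPS + Ska from LPS was 2.62% of the TPM difference between DMSO and LPS, or 16.2% of the log2 difference. Because the LPS columns were near 0, these sizes depend on the pseudocount. With 0.1 in place of 1 the log2 differences were -7.38, 2.39 and -4.98, in the same directions.

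The fall of *Igf1* was the lowest value among all 12819 tested genes in LPS compared with DMSO, and also among the 25181 genes with any signal. *Igf1* passed the limit of the test only through its DMSO columns, so its rank describes the size of the fall and is not a test of it. Of the alternatives, 11 changed the values or the genes ranked, and *Igf1* was the lowest in all 11. It was also the lowest of the 12819 genes in LPS + Ska compared with DMSO, and in 10 of 11 such alternatives, the exception being the pseudocount of 0.1, where it had rank 3. The antisense gene *Igf1os* covers 5117 bases of *Igf1* and was listed at 0, 1.04 and 1.08 TPM with DMSO and at 0 in the other columns. Whether the counting used strand is not given in the sources used here, so reads of *Igf1* and *Igf1os* in the shared bases cannot be told apart.

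**Figure D3:**
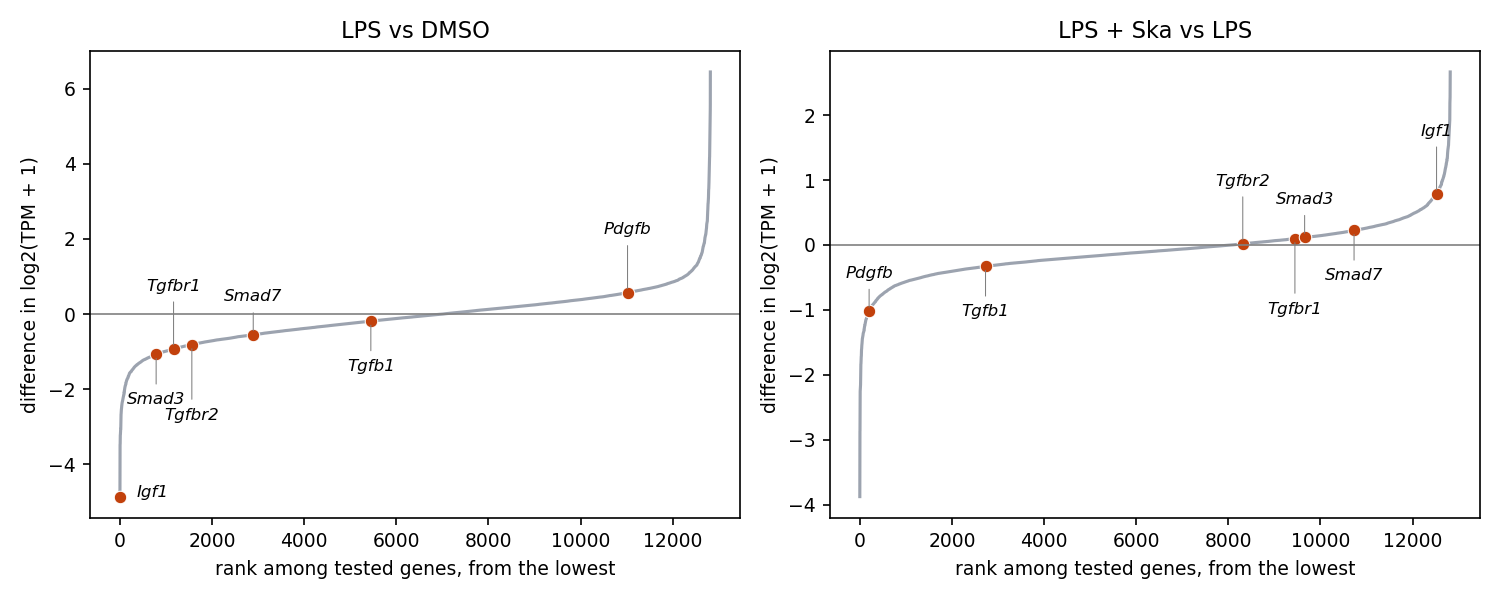
All 12819 tested genes ranked by their difference in log2(TPM + 1), in LPS compared with DMSO (left) and LPS + Ska compared with LPS (right), with the 7 tested members marked. *Igf1* stands at the lowest rank on the left and near the upper end on the right, where both of its group means are below 1 TPM, and *Pdgfb* stands near the lower end on the right.

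Over the 9 columns the genes whose log2 levels were most like those of *Igf1* were *P2ry6*, a receptor for the nucleotide UDP, with a Pearson r of 0.9996, *Alox5*, the 5-lipoxygenase of leukotriene synthesis, with 0.9995, and *Gpr137b* with 0.9987. Mean levels of *Alox5* were 24.5, 1.75 and 2.93 TPM in the DMSO, LPS and LPS + Ska groups. Those of *P2ry6* were 104, 24.8 and 31.1 TPM. Such likeness was common, since 1676 genes had an r over 0.9 with *Igf1*, and the 9 points fall into 3 groups.

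The receptor gene *Igf1r* (ENSMUSG00000005533, chr7:67952827-68233668, plus strand) was listed at 0 in all 9 columns, as were 30220 genes of the table. Of 15 further genes of the Igf axis, 8 were listed at 0 in every column, among them *Igf2*, *Irs1* and *Irs2*, and 3 were tested. Whether these zeros reflect the cells or the estimate was not tested. Of 28 housekeeping genes 0 was listed at 0, but these were chosen after the data were seen and cannot decide this. The tested gene that was called was *Igfbp4*, a secreted protein that binds Igf1 and limits its access to the receptor. *Igfbp4* had 42.7, 45.6 and 47.3 TPM with DMSO, 6.58, 6.38 and 6.78 TPM with LPS, and 9.10, 8.05 and 10.2 TPM with LPS + Ska. Its 3 groups did not overlap and stood in the same order as those of *Igf1*. It fell in LPS compared with DMSO by 2.61 on the log2 scale (limma adjusted p = 6.9e-08). Its difference in LPS + Ska compared with LPS was 0.41 (limma adjusted p = 0.011, and 0.031 from the recovered values), which lay inside the fold change limit. *Igf2r* and *Insr*, the other two tested genes of the axis, were not called in any comparison.

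*Tgfb1*, the ligand of the TGFβ pathway, stayed abundant and moved by less than the fold change limit in each comparison. *Tgfb1* (ENSMUSG00000002603, chr7:25687002-25705077, plus strand) had 214, 223 and 242 TPM with DMSO, 199, 196 and 202 TPM with LPS, and 158, 146 and 170.5 TPM with LPS + Ska. The LPS columns lay below the DMSO columns and the LPS + Ska columns lay below both. Columns of LPS that lay entirely below those of DMSO were found for 38.6% of all tested genes, columns of LPS + Ska below those of LPS for 34.0%, and columns of LPS + Ska below those of DMSO for 41.8%. The log2 difference was -0.18 in LPS compared with DMSO, with an interval of -0.34 to -0.03 (limma adjusted p = 0.040). It was -0.33 in LPS + Ska compared with LPS, with an interval of -0.48 to -0.18 (limma adjusted p = 0.0070, and 0.023 from the recovered values). In LPS + Ska compared with DMSO it was -0.51 (limma adjusted p = 1.4e-04). With median-ratio scaling the first of these was -0.10 (limma adjusted p = 0.25), and the others were -0.23 and -0.33. *Tgfb1* remained at the percentile 94.9 of mean TPM with DMSO, 94.0 with LPS and 92.4 with LPS + Ska.

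Genes with a pattern like that of *Tgfb1* over the 9 columns were *Pes1*, a ribosome biogenesis factor, and *Med27*, a Mediator subunit, both with a Pearson r of 0.994, and *Junb*, an AP-1 subunit, with 0.993, and 692 genes had an r over 0.9. Of 14 further genes for TGFβ ligands and their activation, 3 had enough signal to be tested. *Nrros*, which holds latent Tgfb1 on myeloid cells, had 183, 184 and 191 TPM with DMSO, 104, 97.7 and 110.3 TPM with LPS, and 101, 99.2 and 102 TPM with LPS + Ska. It fell in LPS compared with DMSO by 0.84 on the log2 scale (limma adjusted p = 2.5e-06), and the difference of LPS + Ska from LPS was -0.04 (limma adjusted p = 0.58), which took the other sign with median-ratio scaling. *Furin*, a protease that cleaves the Tgfb1 precursor and that was singled out after its values were seen, differed by -0.52 in LPS compared with DMSO and by -0.45 in LPS + Ska compared with LPS, both inside the limit, and was lower in LPS + Ska compared with DMSO by a log2 difference of -0.97 (limma adjusted p = 2.0e-05).

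Both TGFβ receptors fell with LPS, and neither was called between LPS + Ska and LPS. *Tgfbr2* (ENSMUSG00000032440, chr9:116084293-116175360, minus strand), which binds the ligand, had 50.9, 50.8 and 58.0 TPM with DMSO, 29.9, 29.0 and 30.7 TPM with LPS, and 30.3, 33.1 and 27.5 TPM with LPS + Ska. *Tgfbr1* (ENSMUSG00000007613, chr4:47353222-47414931, plus strand), the kinase that passes the signal on, had 17.1, 21.0 and 21.4 TPM with DMSO, 9.95, 8.87 and 11.02 TPM with LPS, and 10.8, 12.4 and 9.15 TPM with LPS + Ska. For both genes every DMSO column lay above every column that received LPS, and the LPS and LPS + Ska columns overlapped. *Tgfbr2* fell by 0.81 on the log2 scale in LPS compared with DMSO (SE 0.084, limma adjusted p = 3.6e-05), and *Tgfbr1* fell by 0.92 (SE 0.13, limma adjusted p = 2.6e-04). Relative to LPS, the difference of *Tgfbr2* with LPS + Ska was 0.02, with an interval of -0.17 to 0.21 (limma adjusted p = 0.90). That of *Tgfbr1* was 0.10, with an interval of -0.20 to 0.40 (limma adjusted p = 0.61). They were lower in LPS + Ska compared with DMSO by log2 differences of -0.79 and -0.83.

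Of 9 other receptors of the TGFβ family, 8 were tested, and in LPS compared with DMSO 2 rose and 1 fell. That is 25% and 12.5% of the 8, beside 12.7% and 20.0% of all tested genes. *Acvrl1*, a type I receptor, fell by 0.99 on the log2 scale (limma adjusted p = 0.0011), from 8.78, 10.9 and 9.16 TPM to 4.33, 4.48 and 4.17 TPM. *Bmpr1a*, a type I receptor for bone morphogenetic proteins, rose by 0.77 (limma adjusted p = 3.9e-04), from 24.8, 26.4 and 33.1 TPM to 48.2, 45.2 and 51.3 TPM. *Bmpr2*, its type II partner, was the other gene that rose, and it is named although the naming rule does not select it. None of the 8 was called in LPS + Ska compared with LPS, where 1 had an unadjusted limma p below 0.05 and a difference below 0, beside 27.8% of all tested genes, and the median log2 difference of the list was -0.07 in LPS compared with DMSO and -0.04 in LPS + Ska compared with LPS.

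The signal transducer *Smad3* fell with LPS, and the inhibitor *Smad7* lay lower without passing the fold change limit. *Smad3* (ENSMUSG00000032402, chr9:63646767-63757994, minus strand) had 5.56, 6.39 and 7.998 TPM with DMSO, 2.62, 2.28 and 2.97 TPM with LPS, and 2.92, 3.01 and 2.82 TPM with LPS + Ska. *Smad7* (ENSMUSG00000025880, on chromosome 18) had 1.76, 1.88 and 2.79 TPM with DMSO, 1.13, 0.953 and 1.31 TPM with LPS, and 1.49, 1.36 and 1.61 TPM with LPS + Ska. For *Smad3* the columns of LPS and LPS + Ska overlapped, whereas those of *Smad7* lay above LPS in LPS + Ska and below DMSO in both other groups. Columns of LPS + Ska entirely above those of LPS were found for 17.2% of all tested genes. *Smad3* fell by 1.07 on the log2 scale in LPS compared with DMSO (SE 0.14, limma adjusted p = 1.6e-04), and its difference in LPS + Ska compared with LPS was 0.12, with an interval of -0.20 to 0.44 (limma adjusted p = 0.57). *Smad7* differed by -0.55 in LPS compared with DMSO, with an interval of -0.92 to -0.18 (limma adjusted p = 0.016), and by 0.22 in LPS + Ska compared with LPS, with an interval of -0.14 to 0.59 (limma adjusted p = 0.33). *Smad7* was called lower in LPS compared with DMSO when DMSO replicate 5 (-0.63), DMSO replicate 6 (-0.61) or LPS replicate 7 (-0.61) was left out, and with a pseudocount of 0.1 (-0.85). Without DMSO replicate 7 the difference was -0.41, and without LPS replicate 5 (-0.55) or LPS replicate 6 (-0.49) the limma adjusted p rose to 0.055 and 0.054. Because the LPS columns are tied, leaving out 1 of them does not leave out the values of a sample.

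Of 14 other Smads and Smad regulators, 13 were tested. In LPS compared with DMSO 2 fell, which is 15.4% beside 20.0% of all tested genes, and none was called higher. In that comparison 4 had an unadjusted limma p below 0.05 and a difference above 0, beside 28.1% of all tested genes, and 4 had one below 0, beside 36.3%. *Smad6*, an inhibitory Smad of the bone morphogenetic protein branch, had 18.7, 13.6 and 19.9 TPM with DMSO, 3.36, 3.49 and 3.24 TPM with LPS, and 4.06, 3.51 and 4.62 TPM with LPS + Ska. It fell by 2.06 on the log2 scale in LPS compared with DMSO (limma adjusted p = 4.1e-06). *Pmepa1*, a target gene that restrains Smad signaling, fell by 0.65 (limma adjusted p = 0.0041), and this call was lost without DMSO replicate 5 (-0.55). The partners of Smad3, *Smad2* and *Smad4*, differed by 0.32 and 0.49 in LPS compared with DMSO, inside the limit. No gene of the list was called in LPS + Ska compared with LPS, where 7 of the 13 had an unadjusted limma p below 0.05 and a difference below 0, beside 27.8% of all tested genes, and 0 had one above 0, beside 12.7%.

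The windows before the annotated starts of the genes that fell with LPS are shown because these members moved together in that comparison. The sequences are from RefSeq (GRCm38.p6) and are written 5′ to 3′ on the strand of the gene, and each of the first 3 covers the 250 bases before a RefSeq start. Windows were used for 7 of the 10 members. Capitals mark matches, on either strand, to short motifs named after the factors that bind them: CAGAC (Smad), GAGGAA (PU.1), TGANTCA (AP-1), TTGCNNAA (C/EBP), TGACNNNGC (the antioxidant response element) and GCGTG (the core of the dioxin response element), and an NF-κB motif.
Tgfbr2, chr9:116175364-116175613, minus strand: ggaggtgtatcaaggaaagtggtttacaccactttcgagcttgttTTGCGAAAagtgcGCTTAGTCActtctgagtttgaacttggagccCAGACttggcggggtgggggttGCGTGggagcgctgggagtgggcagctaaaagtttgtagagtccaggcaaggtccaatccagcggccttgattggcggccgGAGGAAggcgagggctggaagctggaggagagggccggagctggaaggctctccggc
Tgfbr1, chr4:47352972-47353221, plus strand: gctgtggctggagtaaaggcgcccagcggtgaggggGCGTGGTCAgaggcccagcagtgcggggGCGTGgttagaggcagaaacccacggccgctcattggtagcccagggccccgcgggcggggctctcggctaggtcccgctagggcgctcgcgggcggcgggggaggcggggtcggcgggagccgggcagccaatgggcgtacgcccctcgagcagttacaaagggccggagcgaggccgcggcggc
Smad3, chr9:63757995-63758244, minus strand: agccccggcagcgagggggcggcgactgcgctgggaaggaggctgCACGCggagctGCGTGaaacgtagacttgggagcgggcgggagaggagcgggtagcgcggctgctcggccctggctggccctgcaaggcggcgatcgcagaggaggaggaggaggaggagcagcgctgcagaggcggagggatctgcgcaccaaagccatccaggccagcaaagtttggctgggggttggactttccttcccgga
Igf1, chr10:87861051-87861080, plus strand: GAGGAAgggaaggagctggaactTGAATCA
For *Igf1* only the 30 bases that hold its PU.1 and AP-1 matches are shown, since the 250-base window overlaps untranslated sequence of 2 annotated transcripts. That window (chr10:87860861-87861110) lies after the first annotated base of the gene at 87858265, so the RefSeq start used for *Igf1* is inside the gene.

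The *Tgfbr2* window held a match to each of the Smad, PU.1, C/EBP, antioxidant and dioxin response motifs, with the Smad match 160 bases and the PU.1 match 57 bases before the start. The *Igf1* window held the PU.1 match 60 bases and the AP-1 match 37 bases before the start, and a dioxin response match 196 bases before it. The *Smad3* window held 2 dioxin response matches and no other, and the *Tgfbr1* window held 2, of which 1 overlaps its match to the antioxidant motif. No window of these 4 genes matched the NF-κB motif. A further RefSeq start of *Tgfbr1* has a window of its own, which is not printed and held 1 Smad and 1 PU.1 match. Dioxin response matches were also in the windows, not printed, of *Tgfb1* (1), *Igf1r* (3) and *Tgfbi* (1). *Tgfb1* was not called, and *Igf1r* and *Tgfbi* had no signal and could not be tested. Whether these matches bear on the fall of the other genes was not tested. Of 32851 promoter windows in the RefSeq table, 42.2% held the Smad motif, 23.3% PU.1, 6.75% AP-1, 9.56% C/EBP, 10.2% the antioxidant motif, 28.2% the dioxin motif and 3.90% the NF-κB motif. These matches describe the letters of the windows and are not measured binding sites.

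Of the target genes of TGFβ, the member *Tgfbi* (ENSMUSG00000035493, chr13:56609523-56639562, plus strand), which encodes a secreted matrix protein, was listed at 0 in all 9 columns. Of 11 other target genes 8 were tested, and 2 of them fell in LPS compared with DMSO, 1 fell in LPS + Ska compared with LPS, and 4 were lower in LPS + Ska compared with DMSO. These are 25%, 12.5% and 50% of the 8, beside 20.0%, 6.14% and 25.3% of all tested genes called lower. Some genes stand both here and among the Smad regulators, and *Pmepa1* is counted as a fall with LPS in both. The counts of these lists are therefore not separate. *Id2* is an inhibitor of DNA binding by helix-loop-helix factors. It had 68.7, 93.6 and 62.5 TPM with DMSO, 71.1, 71.1 and 71.2 TPM with LPS, and 37.4, 42.2 and 32.6 TPM with LPS + Ska. It fell by 0.92 in LPS + Ska compared with LPS (limma adjusted p = 0.0018, and 0.010 from the recovered values). In LPS compared with DMSO the difference of *Id2* was -0.05 (limma adjusted p = 0.76), and its sign changed with median-ratio scaling. *Id3*, its family member, fell by 1.51 in LPS compared with DMSO (limma adjusted p = 3.3e-07), from 212, 201 and 207 TPM to 72.0, 76.3 and 67.7 TPM, and the difference of LPS + Ska from LPS was -0.20 (limma adjusted p = 0.064).

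*Pdgfb* was highest with LPS and lowest with LPS + Ska. *Pdgfb* (ENSMUSG00000000489, chr15:79995874-80014977, minus strand), a mitogen for mesenchymal cells, had 70.3, 68.3 and 78.8 TPM with DMSO, 108.1, 106.2 and 110.1 TPM with LPS, and 52.8, 54.5 and 51.0 TPM with LPS + Ska. The groups did not overlap, and the LPS + Ska columns lay below both others. Columns of LPS entirely above those of DMSO were found for 30.3% of all tested genes. The difference in LPS compared with DMSO was 0.57 on the log2 scale (SE 0.064, limma adjusted p = 5.9e-05), inside the fold change limit. In that comparison *Pdgfb* was called higher without DMSO replicate 7 (0.63), without LPS replicate 6 (0.59) and with median-ratio scaling (0.66). The values of LPS replicate 6 remain in part in replicate 5 when it is left out. It fell by 1.02 on the log2 scale in LPS + Ska compared with LPS (SE 0.064, limma adjusted p = 1.9e-05, and 5.1e-04 from the recovered values). This was a fall to 48.8% of the mean TPM with LPS, and 203 of the 12819 genes had a difference as low or lower. The difference of LPS + Ska from DMSO was -0.45 (limma adjusted p = 2.3e-04), inside the limit, and -0.27 with median-ratio scaling.

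The antisense gene *Gm41361* covers 2647 bases of *Pdgfb* and had 0.742, 0.181 and 0 TPM with DMSO, 2.14, 2.46 and 1.83 TPM with LPS, and 0.371, 0.292 and 0.450 TPM with LPS + Ska. Its columns were highest with LPS, as were those of *Pdgfb*, and reads from the shared bases cannot be told apart. Of 6 other genes of the Pdgf axis 2 were tested, and *Nrp1*, a coreceptor, had 8.28, 8.17 and 13.3 TPM with DMSO, 1.28, 1.19 and 1.37 TPM with LPS, and 2.14, 1.84 and 2.44 TPM with LPS + Ska. *Nrp1* fell by 2.23 on the log2 scale in LPS compared with DMSO (limma adjusted p = 8.3e-06). Its difference in LPS + Ska compared with LPS was 0.46 (limma adjusted p = 0.088), and with a pseudocount of 0.1 it was 0.69 and called higher. *Pdgfra*, which encodes a Pdgf receptor, was listed at 0 in every column, and *Pdgfrb*, the receptor gene for the Pdgfb homodimer, was at most 0.278 TPM.

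*Hbegf* (ENSMUSG00000024486, on chromosome 18), an Egf receptor ligand, stayed below the level needed for the test, with a mean of 0.805 TPM over the 9 columns. It had 0.445, 0.143 and 0.291 TPM with DMSO, 1.31, 1.26 and 1.35 TPM with LPS, and 0.815, 0.867 and 0.763 TPM with LPS + Ska. The 3 groups did not overlap, and the order was DMSO, LPS + Ska and LPS. Columns of LPS + Ska entirely above those of DMSO were found for 23.0% of all tested genes, among which *Hbegf* is not counted. When genes of all levels were tested, *Hbegf* was called higher in LPS compared with DMSO, by 0.84 on the log2 scale (SE 0.086, limma adjusted p = 2.9e-04). In the same fit it differed by -0.35 in LPS + Ska compared with LPS (limma adjusted p = 0.032) and by 0.50 in LPS + Ska compared with DMSO (limma adjusted p = 0.0034), both inside the limits. Of 13 other Egf family genes 4 were tested and none was called in any comparison. At an unadjusted limma p below 0.05 there were 0 in LPS compared with DMSO, beside 28.1% of all tested genes higher and 36.3% lower. There was 1 in LPS + Ska compared with LPS and 1 in LPS + Ska compared with DMSO, each with a difference above 0. Beside these, 12.7% and 24.2% of all tested genes were higher at that p, and 27.8% and 42.7% were lower. *Areg*, another Egf receptor ligand that was also below the limit and was singled out after its values were seen, was listed at 0 in the DMSO columns and had 1.28, 0.637 and 1.92 TPM in the LPS columns. Its LPS + Ska columns, at 0.896, 1.29 and 0.502 TPM, overlapped these.

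Of 10 other factors linked to repair, 7 were tested, and in LPS compared with DMSO 3 rose and 1 fell. That is 42.9% and 14.3% of the 7, beside 12.7% and 20.0% of all tested genes. *Spp1*, the secreted phosphoprotein osteopontin, rose by 2.41 on the log2 scale (limma adjusted p = 1.4e-08), from 1599, 1539 and 1569 TPM to 8380.3, 8950.0 and 7811 TPM, and had 9606, 10108 and 9104 TPM with LPS + Ska. *Vegfa*, the angiogenic factor, rose by 0.90 (limma adjusted p = 2.2e-05) and differed by 0.04 in LPS + Ska compared with LPS (limma adjusted p = 0.79). *Plau*, the urokinase-type plasminogen activator, had 49.1, 55.3 and 57.9 TPM with DMSO, 93.1, 89.4 and 96.7 TPM with LPS, and 52.7, 56.6 and 48.9 TPM with LPS + Ska. It rose by 0.77 in LPS compared with DMSO (limma adjusted p = 3.2e-05). It fell by 0.81 in LPS + Ska compared with LPS (limma adjusted p = 1.9e-04, and 0.0019 from the recovered values), and its LPS + Ska columns overlapped those of DMSO. *Vegfb*, a ligand of a Vegf receptor, had 78.1, 77.9 and 72.5 TPM with DMSO, 49.1, 48.3 and 49.8 TPM with LPS, and 31.8, 30.1 and 33.4 TPM with LPS + Ska. It fell by 0.62 in LPS compared with DMSO (limma adjusted p = 2.6e-05) and by 0.61 in LPS + Ska compared with LPS (limma adjusted p = 2.2e-04, and 0.0025 from the recovered values). Both calls were lost with median-ratio scaling (-0.54 and -0.52).

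Over the 88 genes reported from the 8 lists, 44 were tested, 22 were listed at 0 in every column and 22 lay below the limit of the test. In LPS compared with DMSO 5 of the 44 were called higher and 8 lower, which is 11.4% and 18.2%, beside 12.7% and 20.0% of all tested genes. Relative to LPS, 3 of the 44 were called lower with LPS + Ska (*Id2*, *Plau* and *Vegfb*), which is 6.82%, beside 6.14% of all tested genes. None of the 44 was called higher there, beside 3.35% of all tested genes, and 4 had an unadjusted limma p below 0.05 and a difference above 0, beside 12.7%. Against DMSO, 4 were called higher and 11 lower in LPS + Ska, or 9.09% and 25.0%, beside 11.4% and 25.3%. The median log2 differences of the 44 genes were 0.02, -0.14 and -0.20, beside -0.07, -0.10 and -0.18 over all tested genes.

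**Figure D4:**
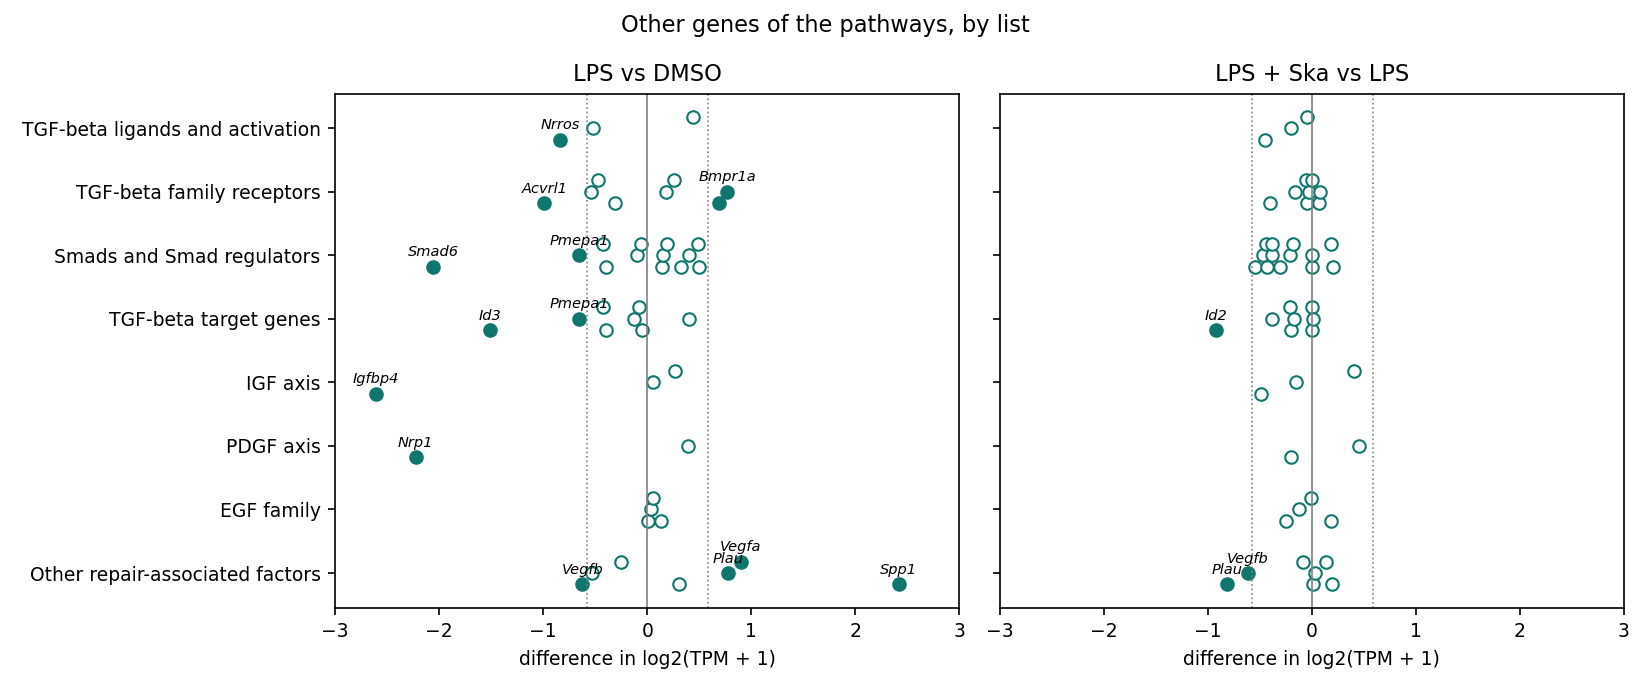
Difference in log2(TPM + 1) of the 44 tested genes reported from the 8 lists in LPS compared with DMSO and in LPS + Ska compared with LPS, with 1 point per gene and a gene of 2 lists drawn in both. Filled points were called changed, the called genes are labelled except *Bmpr2*, and dotted lines mark the fold change limits of 1.5 and 0.67. In LPS compared with DMSO *Igfbp4* is lowest and *Spp1* highest, and in LPS + Ska compared with LPS *Nrp1* is highest, inside the limits, and *Id2* lowest.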

How the data were processed

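The RNA of 9 samples of RAW264.7 cells was sequenced for the authors from NEBNext Ultra RNA libraries, and 1 table of TPM per Ensembl gene was deposited by the authors. The submitters' processing notes name fastp 0.20.1, HISAT2 2.2.1, StringTie 2.0 and the mm10 build. TPM keeps no depth, so no counting error could be given. Symbols were found for 55141 of the 55401 identifiers. Positions came from GENCODE M21 (GRCm38).

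Differences in log2(TPM + 1) came from limma 3.58.1 (R 4.3.3). The lmFit model held all 9 columns, eBayes was run with a trend on intensity, and the 12819 genes whose mean reached 1 TPM were tested. Calls needed a Benjamini-Hochberg adjusted p below 0.05, over all tested genes, and a fold change above 1.5 or below 0.67. A pseudocount of 1 understates the change of low genes. The fit was checked on simulated data. Because 2 groups have tied columns, the 2 recovered values of each, each the midpoint of replicate 5 and one of the other columns, were used as an alternative.

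All 10 members were named, and 1 gene of the target list is not reported here and was left out of the list counts. From each list were named the genes called in LPS + Ska compared with LPS and, of those called only in LPS compared with DMSO, the 2 with the largest change. For *Igf1* and *Tgfb1* the 3 genes of most similar pattern were named, and *Tgfbi* and *Hbegf* did not reach the limit. Members, lists and alternatives, the recovered values included, were chosen with earlier results of these data known. The 28 housekeeping genes were also chosen after the data were seen. The alternatives left out each column in turn, changed the pseudocount to 0.1, dropped the filter or raised it to 5 TPM, scaled by median ratios, called by the adjusted p alone, fitted the compared groups by themselves, dropped the intensity trend, or added a replicate block. Plots were made in Python 3.11.15 (matplotlib 3.10.9).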

Additional observations from a re-analysis of the deposited data

How the results depend on the processing

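Of the values recomputed for single genes under the alternatives, 1088 kept direction and call, 19 became calls, 4 lost their call and 11 changed sign. Several alternatives leave the log2 difference of a comparison as it was, and the adjusted p alone cannot lose a call. Part of the 1088 was thus fixed in advance. The 11 were small and not called. In both LPS groups replicate 5 lies midway between the other columns, so leaving out 1 column there does not leave out the values of a sample. For LPS + Ska compared with LPS, leaving out single columns gave -0.047 (LPS + Ska replicate 6) to 0.083 for *Tgfbr2*, which was also below 0 without replicate 6 of LPS, -0.10 (LPS + Ska replicate 6) to 0.28 for *Acvrl1*, and -0.13 to 0.029 (LPS + Ska replicate 7) for *Bmpr1a*, and median-ratio scaling gave 0.055 for *Nrros* and 0.047 for *Bmpr1a*. For LPS compared with DMSO, *Id2* was 0.030 with median-ratio scaling and -0.17 to 0.12 (without DMSO replicate 6) with single columns left out. For LPS + Ska compared with DMSO, *Plau* was 0.14 with median-ratio scaling and -0.10 to 0.017 with single columns left out, above 0 without DMSO replicate 7 (0.014) and LPS + Ska replicate 7 (0.017). *Vegfb* in LPS + Ska compared with LPS was -0.58, and no longer called, without LPS + Ska replicate 6.

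The count of members called higher in LPS compared with DMSO went from 0 to 1 with no filter (*Hbegf*), and with median-ratio scaling and the adjusted p alone (*Pdgfb*), and was 0 to 1 with single columns left out. With the adjusted p alone, which drops the fold change limits, the members called lower in LPS compared with DMSO went from 4 to 6. Under the same rule 2 members were lower in LPS + Ska compared with LPS. The genes of the lists then numbered 11 higher and 15 lower in LPS compared with DMSO. They numbered 3 and 11 in LPS + Ska compared with LPS, and 9 and 20 in LPS + Ska compared with DMSO. The share of all tested genes under this rule is not given, so these counts are not results about the members or the lists. At an unadjusted limma p below 0.05, 28.1% of all tested genes were higher and 36.3% lower in LPS compared with DMSO. These shares were 12.7% and 27.8% in LPS + Ska compared with LPS, and 24.2% and 42.7% in LPS + Ska compared with DMSO. With skatole added to LPS, 1 gene of the lists (*Nrp1*) was called higher with a pseudocount of 0.1, in place of 0, and 3 to 5 were lower with single columns left out, the 5 without LPS + Ska replicate 6. With a mean TPM of at least 5, *Smad3* and *Smad7* were not tested.

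Same-numbered columns deviated together between LPS and LPS + Ska (r = 0.38, 0.15 and 0.13 across genes) and little in the 6 other pairs (-0.032 to 0.080). Since both LPS groups are tied in the same way, the 3 values are not independent, and the numbers were treated as not pairing the samples. With a replicate block the counts of members called lower and higher were 4 and 0 in LPS compared with DMSO and 1 and 1 in LPS + Ska compared with LPS, as without it. With the depth unknown, no counting error can be given for levels near or under 1 TPM, such as those of *Igf1* with LPS and of *Hbegf*.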
